A study of Mus musculus with 16 samples.

Results

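The transcription factor genes described here are those that keep mouse embryonic stem cells (ESCs) undifferentiated: Esrrb, Tfcp2l1, Sox2, Pou5f1, Klf4, Klf2, Prdm14, Tbx3, Sall4 and Nr5a2. They were chosen by name, and every listed RNA–DNA pair whose RNA carried 1 of these 10 names was taken, out of 12080 RNA names listed in all. The pairs come from PGK12.1 mouse ESCs that were cultured with serum and Leukemia Inhibitory Factor and fixed with 1% formaldehyde. In the assay, chromatin in isolated nuclei was cut with DNase I and a bridge adaptor joined each RNA to the DNA beside it, so that every sequenced molecule holds an RNA tag and a DNA tag. H3K27me3-RADIP libraries (8 labelled) were made from molecules pulled down with an antibody against trimethylated histone H3 lysine 27, and Input libraries (8 labelled) from a part of the same kind of material kept without antibody. Both groups share the cell line, the medium, the fixation and the ligation, no gene was altered in either, and each group was given as 1 merged table.

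The mark H3K27me3 is laid down by Polycomb repressive complex 2 and is found over developmental genes that are silent in ESCs, while the genes studied here are transcribed in these cells. Their products bind DNA at one another's regulatory regions, which makes them a connected network, and cytokine signalling through LIF and STAT3 feeds into it mainly through Klf4 and Tfcp2l1. The question put to the tables was where in the genome the RNAs of these genes lay, and whether the pulled-down material differed from the Input in amount, in distance from the gene and in the part of the RNA that was captured.

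Input was deposited with 1305107 pairs and H3K27me3-RADIP with 1415135. Where a pair of values is given without further words, Input stands first and H3K27me3-RADIP second. The authors had kept only pairs whose combination of RNA and 25-kb DNA bin reached a q-value of at most 0.1, and the smallest combination held 7 pairs, so that a gene without a row is not shown to be silent. With 1 merged table per condition there was no replicate error. All intervals below are 95% intervals that cover counting error only, and each difference compares 2 merged tables and not the spread of the conditions. In a bulk preparation, more cells with an RNA and more RNA per cell cannot be told apart. PCR copies could not be told from independent molecules: 6.79% of Input pairs and 9.74% of H3K27me3-RADIP pairs repeated both tag positions of another pair.

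In Input 7 of the 10 genes had a row, and in H3K27me3-RADIP 8 of them had one, where 42.3% and 43.7% of all annotated protein-coding genes were listed. Pou5f1, which encodes the POU-domain factor Oct4, and Prdm14, a zinc finger protein that holds back FGF signalling and DNA methylation, had no row in either table. Sox2, the HMG-box partner of Oct4, was listed in H3K27me3-RADIP and not in Input. The genes together gave 4147 and 4564 pairs, or 0.318% and 0.323% of all pairs. Esrrb, Nr5a2 and Tfcp2l1 made up 95.2% and 93.5% of these. All pairs of the listed genes had RNA and DNA on the same chromosome (0 pairs with the DNA tag elsewhere), and all RNA tags lay on the strand of their gene.

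**Figure D1:**
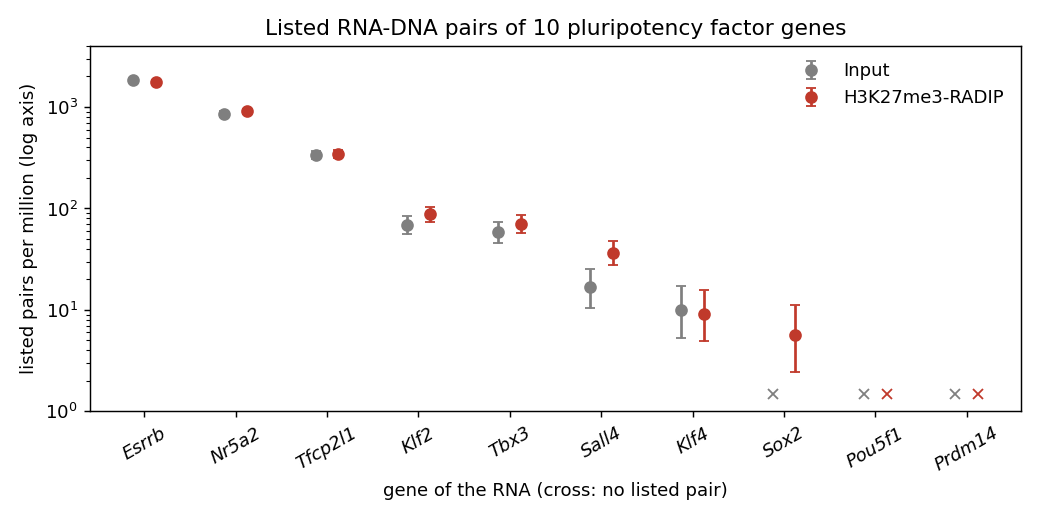
Pairs scaled to 1000000 listed pairs (log axis) for each gene in Input (grey) and H3K27me3-RADIP (red), with 95% Poisson intervals; crosses mark genes without a row. Esrrb stands highest at 1830 and 1767, the intervals of the tables overlap for every gene listed in both except Sall4, and Pou5f1 and Prdm14 have no row.

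The sequences that the results turn on are shown first. The 8 Sox2 pairs are given because they are all that was listed for that gene. The 24 bases of each RNA tag, written 5′ to 3′ on the plus strand of chromosome 3 (mm10, from GRCm38.p6), run from chr3:34650394-34650417 for the first to chr3:34651867-34651890 for the last. Capitals mark bases that the RNA tag shares with the DNA tag of the same pair, which happened in pair 2 alone.
Sox2 pair 1, RNA tag: gccgcgcccgcccagcgcccgcat
Sox2 pair 2, RNA tag: TCAAGAGGCCCATgaacgccttca
Sox2 pair 3, RNA tag: ccgttcatcgacgaggccaagcgg
Sox2 pair 4, RNA tag: ctgggctacccgcagcacccgggc
Sox2 pair 5, RNA tag: atgcaaccgatgcaccgctacgac
Sox2 pair 6, RNA tag: gtcagcgccctgcagtacaactcc
Sox2 pair 7, RNA tag: ccaatcccatccaaattaacgcaa
Sox2 pair 8, RNA tag: attgtttataagctgagaatttgc
Sox2 pair 2, DNA tag: cccggaccgcgTCAAGAGGCCCAT

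The RNA tag and the DNA tag of pair 2 shared 13 bases. By the deposited region labels, the first tag lay in the 5′ untranslated region, tags 2 to 6 in the coding sequence, and tags 7 and 8 in the 3′ untranslated region.

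Promoter stretches are shown for Esrrb, Klf2 and Tfcp2l1, chosen with the DNA tag counts in view, and the counts of the other windows are given after them. Capitals mark bases under the DNA tag of any listed pair in either table. The first stretch is the 250 bases before the second RefSeq start of Esrrb, at chr12:86421394-86421643 (plus strand, GRCm38.p6). The second is the 250 bases before an internal start of Esrrb in the GENCODE annotation, at chr12:86469867-86470116 (plus strand, read from the GRCm38.p6 genome), which is intronic in the longer transcripts. The others are the 250 bases before the RefSeq starts of Klf2, at chr8:72318812-72319061, and of Tfcp2l1, at chr1:118627695-118627944 (both plus strand, GRCm38.p6).
Esrrb second promoter: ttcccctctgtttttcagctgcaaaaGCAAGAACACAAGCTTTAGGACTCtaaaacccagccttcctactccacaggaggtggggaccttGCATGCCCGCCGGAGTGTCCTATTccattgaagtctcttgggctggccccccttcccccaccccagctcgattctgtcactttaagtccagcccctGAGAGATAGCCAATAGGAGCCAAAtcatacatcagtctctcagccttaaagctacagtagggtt
Esrrb internal start: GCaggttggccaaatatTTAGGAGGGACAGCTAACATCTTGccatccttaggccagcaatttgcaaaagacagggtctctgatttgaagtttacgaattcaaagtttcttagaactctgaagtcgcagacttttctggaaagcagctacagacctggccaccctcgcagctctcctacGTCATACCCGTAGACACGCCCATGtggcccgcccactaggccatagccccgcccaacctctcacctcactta
Klf2 promoter: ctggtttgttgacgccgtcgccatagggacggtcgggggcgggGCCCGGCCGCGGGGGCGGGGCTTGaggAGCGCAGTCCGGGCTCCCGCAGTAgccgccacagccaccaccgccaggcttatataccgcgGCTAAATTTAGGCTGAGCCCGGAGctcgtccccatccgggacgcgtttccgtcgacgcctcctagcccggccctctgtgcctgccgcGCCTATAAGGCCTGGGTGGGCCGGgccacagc
Tfcp2l1 promoter: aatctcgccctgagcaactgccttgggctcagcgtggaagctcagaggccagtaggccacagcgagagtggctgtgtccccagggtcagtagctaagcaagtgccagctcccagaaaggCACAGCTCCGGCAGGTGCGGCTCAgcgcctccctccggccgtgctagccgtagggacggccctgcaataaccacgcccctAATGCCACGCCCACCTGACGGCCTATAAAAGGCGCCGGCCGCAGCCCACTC

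The second Esrrb promoter was covered by 2 DNA tags of Esrrb RNA and 2 of other RNAs in H3K27me3-RADIP, and by 0 in Input. The stretch before the internal start was covered by 3 DNA tags of Esrrb RNA in Input and by 0 in H3K27me3-RADIP. The Klf2 promoter was covered by 2 DNA tags of Eps15l1 RNA in Input and by 2 of Klf2 RNA in H3K27me3-RADIP. The Tfcp2l1 promoter was covered by 2 DNA tags of Tfcp2l1 RNA in each table and by 5 and 1 of other RNAs. Of the windows not printed, that of Klf4 had 1 and 1 of its own and 2 and 0 of other RNAs, the first of Pou5f1 had 1 of another RNA in H3K27me3-RADIP, the second of Nr5a2 had 1 of its own in Input, and the others had 0. These are small counts, and none of them was tested. Of the 11 stretches searched on both strands (the RefSeq promoters of the 7 genes that had 1, and the internal start), 0 held the octamer ATGCAAAT, 0 the nuclear receptor element TCAAGGTCA and 0 the KLF element CCACACCC, which occurred in 1.60%, 0.387% and 3.20% of 32851 RefSeq promoters.

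Esrrb, an orphan nuclear receptor related to the estrogen receptors that supports self-renewal, gave by far the most pairs. It lies at chr12:86361117-86521628 on the plus strand and is 161 kb long. It gave 2388 and 2500 pairs, more than 99.4% of the listed protein-coding RNAs (pcRNAs) in each table. Relative to all listed pairs, the log2 ratio of H3K27me3-RADIP to Input was −0.05 (95% interval −0.13 to 0.03), so that the amount differed by less than the counting error.

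The RNA tags of Esrrb did not come from the whole gene. Of 2388 tags in Input, 2303 lay downstream of the annotated internal start at position 86470117, which is 109 kb into the gene, and the share was 96.4% (95.6 to 97.1). In H3K27me3-RADIP it was 95.8% (94.9 to 96.5), or 2395 of 2500 tags. The density stepped up at that start: the 1 kb before it held 1 tag in Input and 0 in H3K27me3-RADIP, and the 1 kb after it held 42 and 47 tags. This start was singled out after the tag positions had been seen. Nr5a2 and Tfcp2l1 gave tags along the whole gene, with 36.7% and 39.0% of Input tags in the first of 3 equal parts of the gene and 31.5% and 33.6% in the last, against 1.93% and 96.5% for Esrrb.

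**Figure D2:**
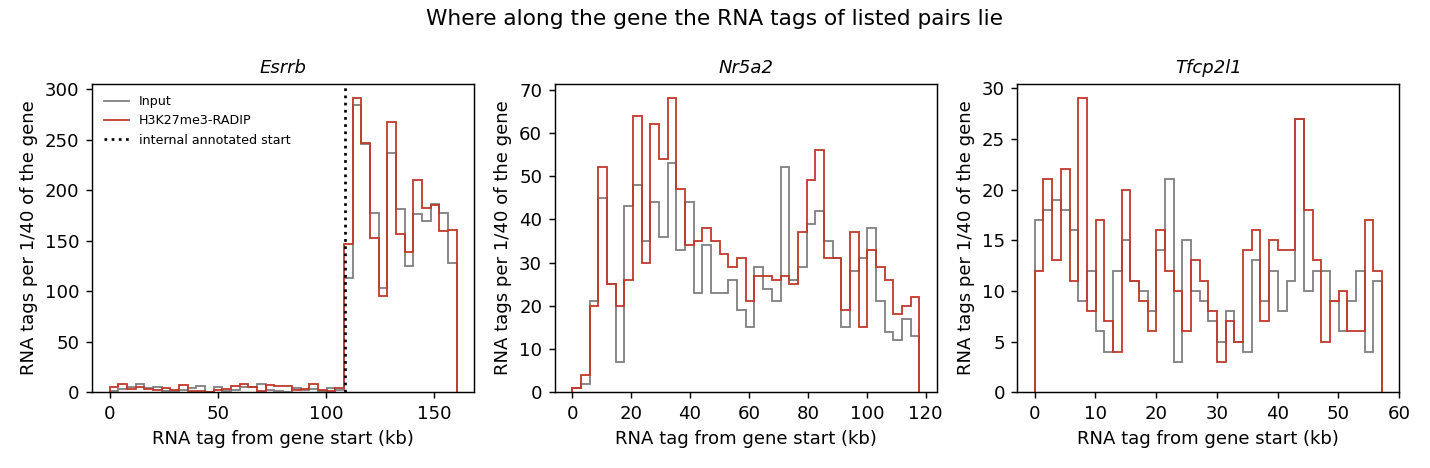
Number of RNA tags in each of 40 equal parts of the gene, from the annotated start to the end (kb), for Esrrb, Nr5a2 and Tfcp2l1 in Input (grey) and H3K27me3-RADIP (red). The Esrrb tags begin in bulk at the internal annotated start 109 kb into the gene (dotted line) in both tables. Those of Tfcp2l1 are spread over the gene, and those of Nr5a2 over the gene beyond its first 5.89 kb, which holds few.

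The DNA tags of Esrrb spread over 82 and 74 bins, and 66 bins were common to both tables. The share of pairs with the DNA tag outside the gene rose from 63.4% to 70.2%, by 6.84 percentage points (4.20 to 9.47). Pairs over 100 kb apart made up 56.2% and 60.0%, or 3.88 points more in H3K27me3-RADIP (1.12 to 6.64). Over all pcRNA pairs the share outside the gene went from 43.1% to 51.4% and the share over 100 kb from 36.4% to 43.7%. These rises, 8.28 and 7.28 points, pool the pairs of all pcRNAs, and those at Esrrb were no larger. Taken per pcRNA, the median rise of the outside share was 6.34 points, slightly below that of Esrrb. The median distance between the tags, 147 kb (129 to 167) and 152 kb (138 to 163), had overlapping intervals, and over the bins listed in both tables it was 115 and 142 kb. In the full tables a shorter median was found in 98.6% and 97.5% of pcRNAs with at least 10 pairs.

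Within and next to the gene, the 2 tables differed bin by bin. The 2 bins at the 3′ end of Esrrb, in the stretch that its RNA tags came from, held 595 pairs in Input and 393 in H3K27me3-RADIP (log2 ratio −0.72, −0.90 to −0.53). The first 4 of the 7 bins over the gene went the other way, with 214 and 304 pairs (0.39, 0.13 to 0.65), and each of the 4 was higher in H3K27me3-RADIP. The bin between them, which holds the internal start, had 109 and 94 (−0.33, −0.74 to 0.08). This grouping was chosen after the bins had been seen. The 24 outside bins that began within 300 kb of the gene held 731 and 1071 pairs (0.43, 0.30 to 0.57), and 21 of them were higher. Of the bins farther out, the 35 listed in both tables held 570 and 567 pairs (−0.12, −0.29 to 0.05), while 16 bins were listed in Input alone and 8 in H3K27me3-RADIP alone. With those bins included, the farther bins held 739 and 638 listed pairs (−0.33, −0.48 to −0.17).

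Neighbours of Esrrb on chromosome 12 were compared over their bins. The 5 bins with Tgfb3, a ligand of the TGF-beta family, or Ift43 held 112 and 151 Esrrb pairs (0.31, −0.05 to 0.68). The 9 bins over the tubulin ligase gene Ttll5 alone held 180 and 134 (−0.54, −0.88 to −0.21), with 7 of them lower in H3K27me3-RADIP and 2 higher. Bins that Ttll5 shares with other genes are not in that sum. They held 17 and 17 pairs, and 21 and 30, the latter counted with Tgfb3 above. Farther upstream, the AP-1 gene Fos had 19 and 21 Esrrb pairs in 2 bins, and Batf, of the same family of leucine zipper factors, had 24 and 35 in 2 bins (0.43, −0.36 to 1.24). Jdp2, another member of that family, had 23 and 26 pairs in the 2 bins listed in both tables (0.06, −0.81 to 0.94), and a bin with 15 pairs listed in Input alone. The intervals at Tgfb3 and Ift43, Batf and Jdp2 include 0. All of these neighbours were picked with their values in view.

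A few Esrrb bins lay far along the chromosome. In Input, Mta1, which encodes a subunit of the NuRD chromatin remodelling complex, had a bin with 11 pairs 26.6 Mb from the gene. In H3K27me3-RADIP, Hhipl1 had 8 pairs at 21.8 Mb and D430019H16Rik 9 pairs at 19.0 Mb. None of these 3 bins was listed in both tables. The next farthest in Input were bins over Acot4 at 2.31 Mb, Ltbp2 at 1.49 Mb, Arel1 and Fcf1 at 1.39 Mb, and Eif2b2 and Mlh3 at 1.11 Mb upstream, with 8 to 10 pairs each. In H3K27me3-RADIP they were 3 adjoining bins over Dlst, Rps6kl1 and the growth factor gene Pgf, 1.16 to 1.21 Mb upstream, with 9, 10 and 9 pairs.

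Nr5a2, an orphan nuclear receptor of the epiblast that acts on Pou5f1, lies at chr1:136842571-136960448 on the minus strand. Its RNA gave 1117 and 1283 pairs, with a log2 ratio of 0.08 (−0.03 to 0.20). Its pairs lay farther out in H3K27me3-RADIP: 55.7% and 62.3% were over 100 kb apart (6.59 points more, 2.65 to 10.5), and 67.5% and 73.0% were outside the gene (5.45 points more, 1.79 to 9.12), both below the rises over all pcRNA pairs. The median distance was 135 kb (112 to 154) against 163 kb (141 to 187), with overlapping intervals.

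The tables differed at Nr5a2 mainly in which bins were listed. Downstream of the gene the RNA had 358 pairs over 26 bins in Input against 530 over 37 in H3K27me3-RADIP, and upstream 334 over 19 against 345 over 15. The 23 downstream bins listed in both tables had 326 and 354 pairs (log2 ratio 0.00, −0.22 to 0.22), and the 15 upstream ones 295 and 345 (0.11, −0.12 to 0.34). The other pairs lay in 14 downstream bins listed in H3K27me3-RADIP alone, with 176 pairs, while 3 other downstream bins, with 32 pairs, were listed in Input alone. On the upstream side 4 bins with 39 pairs were listed in Input alone and 0 in H3K27me3-RADIP alone.

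Of the 14 downstream bins listed in H3K27me3-RADIP alone, 5 lay between 700 and 900 kb from the Nr5a2 start, a stretch picked after the bins had been seen. They included the 3 bins with the muscle calcium channel gene Cacna1s, which had 43 pairs in H3K27me3-RADIP and were not listed in Input. The 2 bins of that stretch that both tables listed had the same counts, 15 and 15 in the nearer and 10 and 10 in the farther. A bin that a table does not list fell below its threshold, and how many pairs it held there is not known. In the bins with Kif14, the 3 listed in both tables had 50 and 42 pairs (−0.37, −1.0 to 0.25), and in those with Camsap2 the 3 had 34 and 28 (−0.40, −1.17 to 0.37), with 1 bin each listed in Input alone.

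The bin with Zfp281, a zinc finger factor of the pluripotency network, that both tables listed had 14 and 16 pairs (0.08, −1.05 to 1.22), and another with 10 pairs was listed in H3K27me3-RADIP alone. The farthest bin of Nr5a2 in Input lay over Tnni1 and Lad1, 1.02 Mb from the gene, with 8 pairs against 9 in H3K27me3-RADIP. H3K27me3-RADIP also listed a bin over Csrp1, 1.09 Mb away, with 8 pairs. Between these and the gene, Lad1 and Tnnt2 had 15 pairs in both tables, and Tnnt2 and Pkp1 had 10 and 11.

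**Figure D3:**
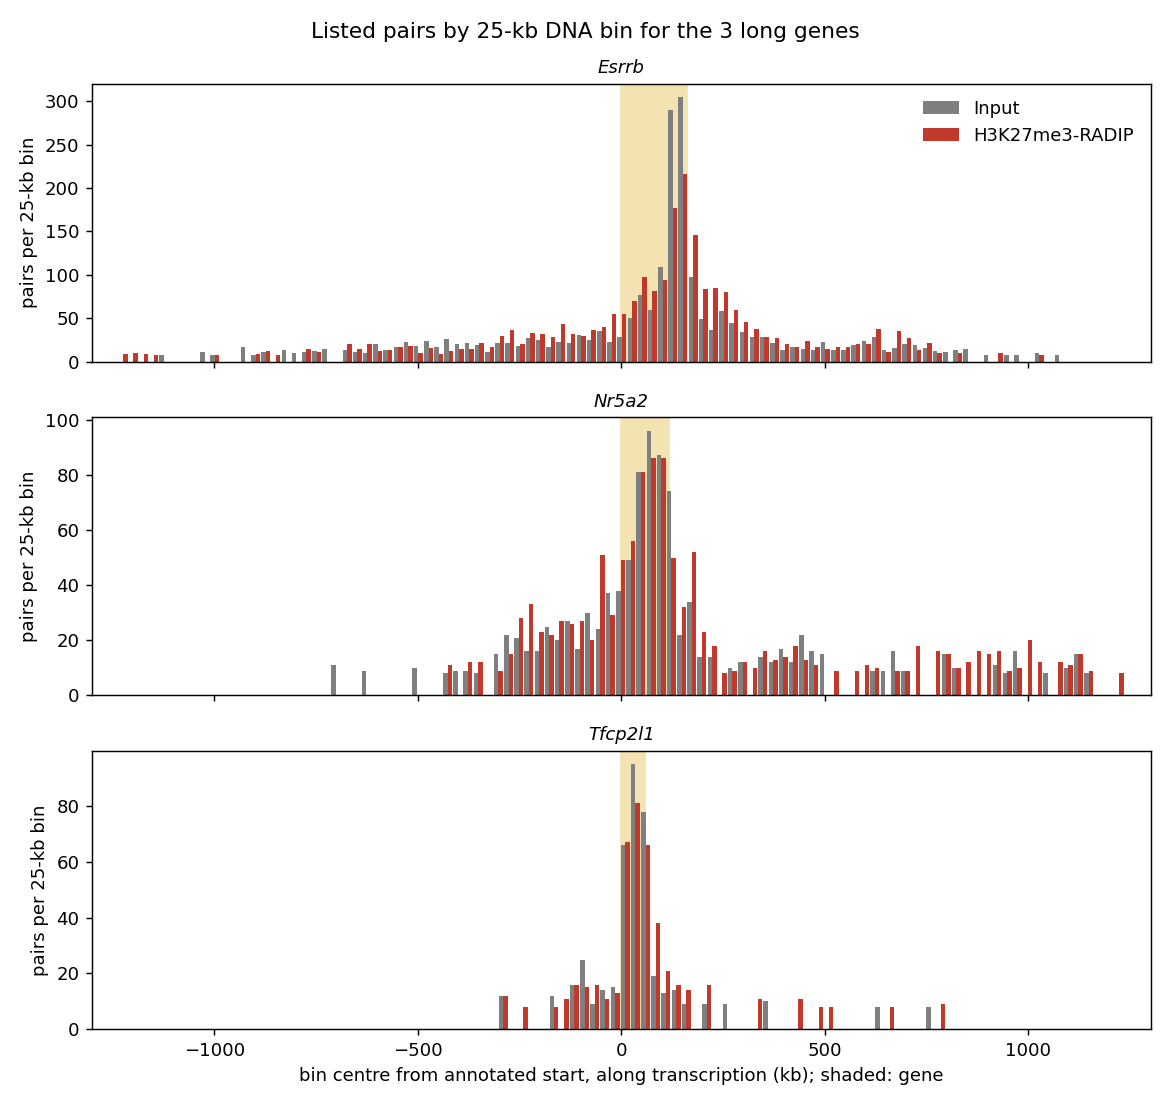
Pairs in each 25-kb DNA bin against the distance of the bin centre from the annotated start along the direction of transcription (kb) for Esrrb, Nr5a2 and Tfcp2l1, Input in grey and H3K27me3-RADIP in red, with the gene shaded; bins more than 1300 kb from the start, which Esrrb alone had, are not drawn. The 2 bins at the Esrrb 3′ end fall from 595 to 393 pairs, and Nr5a2 bins listed in H3K27me3-RADIP alone stand out beyond 500 kb downstream.

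Tfcp2l1, a CP2-family factor downstream of LIF and STAT3, lies at chr1:118627945-118685168 on the plus strand. Its RNA had 441 and 484 pairs (log2 ratio 0.02, −0.17 to 0.21). The share outside the gene was 55.3% and 65.5% (10.2 points more, 3.86 to 16.4), and the share over 100 kb was 27.9% and 34.5% (6.61 points more, 0.627 to 12.5), beside 8.28 and 7.28 points over all pcRNA pairs. The median distance was 32.8 kb (26.5 to 45.5) against 50.7 kb (38.3 to 63.7), with overlapping intervals, and 27.4 and 35.3 kb over the bins listed in both tables. Its 19 and 23 bins, of which 15 were shared, lay in the gene, upstream over its neighbour Clasp1 and downstream as far as Gli2 and beyond. The farthest upstream bin of both tables lay over Nifk, with 12 and 12 pairs.

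Downstream of Tfcp2l1 there were 99 pairs over 9 bins and 160 over 11. The 5 of these bins listed in both tables held 64 and 105 pairs (0.60, 0.14 to 1.07). The 4 bins next to the gene on that side held 55 and 89 pairs (0.58, 0.08 to 1.09), and each of the 4 was higher. Clasp1, a microtubule-binding protein gene, had 91 and 79 Tfcp2l1 pairs in the 6 bins listed in both tables (−0.32, −0.77 to 0.13), with lower counts in 4, equal ones in 1 and a higher one in 1, and 2 more bins with 19 pairs in H3K27me3-RADIP alone. Gli2, a transcription factor of Hedgehog signalling, had 9 and 16 pairs in the 1 bin listed in both tables (0.71, −0.55 to 2.07), and 2 different bins were listed in each table alone. The farthest bins lay 690 kb downstream in Input, with 8 pairs and no protein-coding gene, and 715 kb downstream in H3K27me3-RADIP, with 9 pairs over Inhbb, a subunit gene of activin and inhibin.

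Tbx3, a T-box factor, lies at chr5:119670669-119684724 on the plus strand and shares its locus with the antisense RNA Tbx3os1. Its RNA had 76 and 100 pairs (log2 ratio 0.28, −0.17 to 0.73), and 76 and 79 pairs over the bins listed in both tables. The share outside the gene was 31.6% and 54.0% (22.4 points more, 7.64 to 35.7). Pairs over 100 kb apart numbered 10 in H3K27me3-RADIP, in a bin that Input did not list, and the median distance was 2.97 kb (2.01 to 6.00) and 6.59 kb (4.45 to 11.3), the latter 4.45 kb over the bins listed in both tables. With the gene widened by 5 kb on both sides the share outside was 18.4% and 38%. All 3 Input bins were also listed in H3K27me3-RADIP, which added a bin of 10 pairs 95.7 kb upstream and a bin of 11 pairs 15.3 kb downstream.

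Klf2, a Krüppel-like zinc finger factor, lies at chr8:72319033-72321656 on the plus strand. Its RNA had 90 and 124 pairs (log2 ratio 0.35, −0.06 to 0.75). The bins listed in both tables held 82 and 124 pairs. Scaled to the pairs of all RNAs in their shared bins, the Klf2 ratio there was 0.59, past the log2 ratio of 0.5 used as the fold limit. Relative to all listed pairs it was below that limit. With a q-value of at most 0.01, and scaled to the pairs kept, the ratio was 0.65, past the limit. With repeated tag positions counted once, which left 87 and 104 pairs, it was 0.19. Per length of gene it was the densest of the listed genes, at 26.3 and 33.4 pairs per kb of gene and 1000000 listed pairs, above 99.9% of listed pcRNAs in Input and 99.96% in H3K27me3-RADIP. Its pairs stayed close to the gene. The median distance was 2.88 kb (2.18 to 4.29) against 2.14 kb (1.70 to 2.72), and the share outside was 65.6% and 60.5% (difference −5.07 points, −17.7 to 8.05). With this short gene widened by 5 kb on both sides the share was 35.6% and 29.8%. Outside the gene, Klf2 RNA was listed over Eps15l1 on the downstream side, with 13 and 18 pairs in the nearer bin and 9 and 17 in the next, and over Ap1m1 in Input alone, with 8.

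Sall4, a spalt-like zinc finger factor, lies at chr2:168748332-168767943 on the minus strand and was the only gene past the fold limit over all listed bins. The counts were 22 and 52 pairs (log2 ratio 1.12, 0.38 to 1.91). Of the 6 genes with at least 50 pairs in both tables together, 1 was past the limit upwards and 0 downwards, where 14.4% of 5364 pcRNAs were past it upwards and 23.8% downwards. The single bin listed in both tables had 22 and 28 pairs (log2 ratio 0.23, −0.63 to 1.11), below the limit. Scaled to the pairs of all RNAs in their shared bins, the Sall4 ratio was 0.34, also below it. That of Klf2 was past the limit on this scale and below it relative to all listed pairs. The rest came from 2 bins listed in H3K27me3-RADIP alone: 14 pairs over the 3′ end of Sall4 and its neighbour Atp9a, and 10 pairs in a bin 32.1 kb upstream without a protein-coding gene. The median distance was 1.34 kb (0.326 to 3.86) and 7.40 kb (5.10 to 13.5), but 3.13 kb in H3K27me3-RADIP over the bin listed in both tables, which lies within the Input interval. Over all listed bins the share outside the gene was 0% and 38.5% (19.4 to 52.0 points more).

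Klf4, a Krüppel-like factor downstream of LIF and STAT3, lies at chr4:55527143-55532466 on the minus strand and had 13 pairs in each table, all in the bin of its own start site (log2 ratio −0.12, −1.34 to 1.11). The median distances were 0.897 kb and 0.936 kb, and 3.89% of pcRNAs had a shorter one in Input.

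Sox2 lies at chr3:34650405-34652461 on the plus strand, inside the long noncoding RNA Sox2ot of the same strand. Its 8 pairs in H3K27me3-RADIP, whose RNA tags are printed above, filled 1 bin with a q-value of 0.0438. The DNA tags of these pairs lay from 0.246 kb before to 9.59 kb after the GENCODE start, and 6 of the 8 were outside the gene, 5 of them downstream. The distances ran from 0.011 kb for pair 2 to 8.12 kb for pair 8, with a median of 3.25 kb. Sox2ot itself had 290 and 300 pairs, and 0 of its RNA tags lay within Sox2. The deposited assignment of an RNA tag from this overlap to Sox2 or Sox2ot was taken as given.

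**Figure D4:**
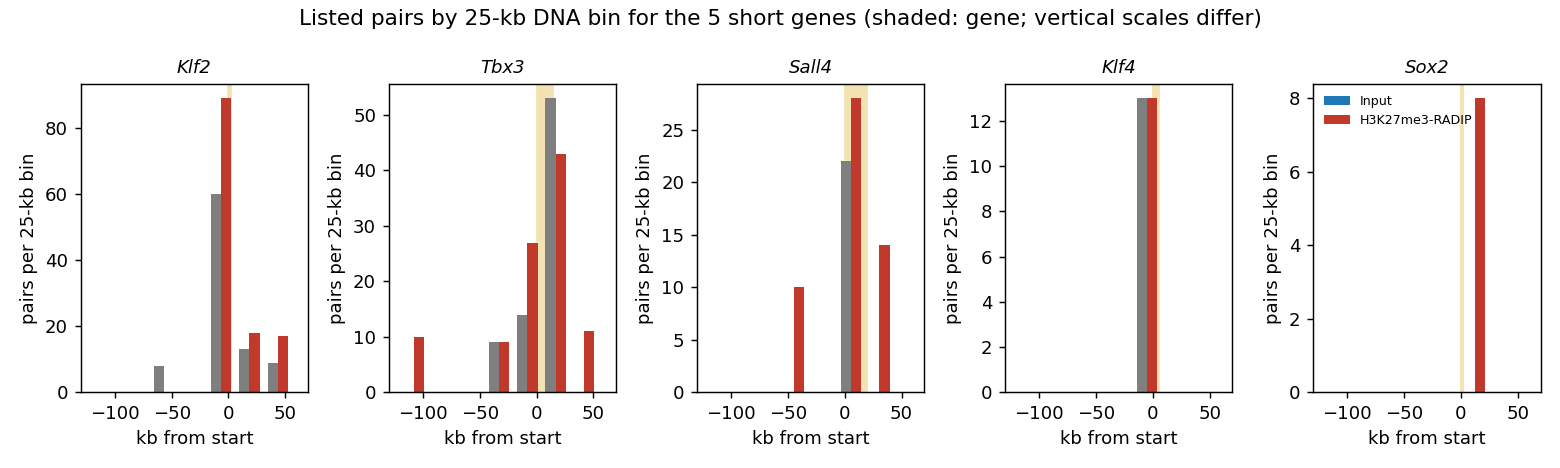
Pairs in each 25-kb DNA bin against the distance of the bin centre from the annotated start (kb, along transcription) for Klf2, Tbx3, Sall4, Klf4 and Sox2, with Input in grey, H3K27me3-RADIP in red and the gene shaded; each panel has its own vertical scale. Tbx3 and Sall4 each have 2 bins in H3K27me3-RADIP that Input does not list, and Klf4 has 13 pairs in 1 bin in both.

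Over the 7 genes listed in both tables, 6 had a longer median distance in H3K27me3-RADIP, where 69.5% of 6916 pcRNAs with at least 10 pairs in each table were longer. The share outside the gene was larger in 5 of the 7, against 67.1% of the same pcRNAs. Both counts are near the shares of all pcRNAs. The median ratio of the median distances was 1.21 over the 7 genes and 1.34 over the pcRNAs, and the median rise of the outside share 6.84 and 6.34 points. Measured from the edge of the gene in place of the RNA tag, the median distance was longer in 3 of 7 genes (Tfcp2l1, Tbx3 and Nr5a2), was 0 in both tables for Klf4 and Sall4, and was 83.8 kb in both for Esrrb.

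Intron tags made up a larger share of the pairs in the long genes than in the short ones. How much of each gene is intron was not taken into account. Tags in introns made up 91.2% and 91.2% of Esrrb pairs, 94.9% and 94.7% of Nr5a2 pairs and 85.0% and 87.2% of Tfcp2l1 pairs in Input and H3K27me3-RADIP, beside 88.9% and 89.6% over all pcRNAs. Sall4 had 59.1% and 57.7%, Tbx3 48.7% and 54.0%, Klf2 37.8% and 38.7%, Klf4 30.8% and 38.5%, and Sox2, which has no intron, 0%. At Klf2 the coding sequence gave 31.1% (22.5 to 41.3) in Input and 41.9% (33.6 to 50.7) in H3K27me3-RADIP, and the 3′ untranslated region 31.1% (22.5 to 41.3) and 19.4% (13.4 to 27.2), with overlapping intervals.

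In Esrrb, Nr5a2 and Tfcp2l1, as in most pcRNAs, the 3′ untranslated region was a larger part of the pairs whose DNA tag lay outside the gene. Of 3945 and 4021 pcRNAs with at least 10 pairs inside and 10 outside their gene, 61% and 56.9% had a larger share outside, and 23.2% and 25.3% a smaller one. For Esrrb it was 4.0% inside and 6.15% outside in Input (2.15 points more, 0.275 to 3.88), and 3.89% against 6.61% in H3K27me3-RADIP (2.72 points more, 0.757 to 4.44). For Tfcp2l1 the difference was 6.01 points (0.227 to 11.6) in Input and 2.69 points (−3.45 to 7.98) in H3K27me3-RADIP. For Nr5a2 it was 1.32 points (−0.122 to 2.51) and 1.96 points (0.421 to 3.14). The intervals of 2 of these 6 differences included 0. Klf2 had 22.6% inside and 35.6% outside in Input, and 12.2% and 24% in H3K27me3-RADIP, and Tbx3 had 11.5% and 12.5%, and 6.52% and 13%. Klf4 had 0% and 25% in Input, and the other direction in H3K27me3-RADIP, 10% and 0%. Sall4 had no outside pair in Input, and 3.1% and 10% in H3K27me3-RADIP, where Sox2 had 0% and 33.3%. The shares of these short genes rest on few tags and have no interval.

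The DNA at the start sites was examined for RNAs of other genes. The 25-kb bin that holds the start site was reached by another RNA at 6 of the 10 genes in Input and 8 in H3K27me3-RADIP, where the same held for 61.1% and 64.4% of 10728 listed coding genes. Pou5f1 and Prdm14, whose own RNAs were not listed, were both reached. The Pou5f1 bin had 10 pairs of its neighbour Cchcr1 in H3K27me3-RADIP and none listed in Input, and a count of 0 at a start site stands here for pairs not listed. The Prdm14 bin held 59 and 73 pairs, with 37 and 41 of the nuclear receptor coactivator Ncoa2, 22 and 23 of the sulfatase Sulf1, and 0 and 9 of Prex2.

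At the Sox2 bin, Sox2ot gave 45 pairs in Input and 31 in H3K27me3-RADIP, and Fxr1 gave 9 and 0. The Tbx3 bin had 10 and 34 pairs of Med13l, a Mediator subunit gene, and 12 of Rbm19, which Input did not list, while Tbx3os1 had 20 and 9. At the Tfcp2l1 bin the counts were lower in H3K27me3-RADIP, with 31 and 12 for Clasp1 and 31 and 15 for Gli2.

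The Klf2 bin held 46 and 36 pairs of its neighbour Eps15l1, and in H3K27me3-RADIP also 10 pairs of Malat1, an abundant nuclear noncoding RNA from another chromosome, with a q-value of 0.0131. It was the only start site of the 10 genes with Malat1 pairs, which were listed at 0.680% of start-site bins of coding genes in Input and 1.10% in H3K27me3-RADIP. Of these 10 pairs, 7 lay within 5 kb of the Klf2 start. The Klf4 bin held 12 and 0 pairs of Rad23b and 10 and 10 of Zfp462, the Esrrb bin 0 and 16 of Ttll5, and the Sall4 and Nr5a2 bins 0 in both.

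**Figure D5:**
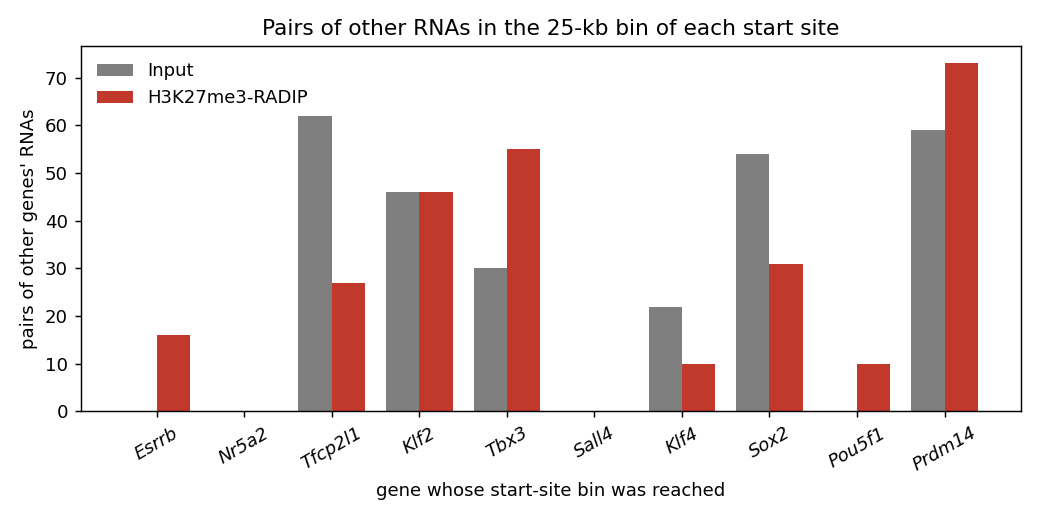
Number of pairs of other genes' RNAs in the 25-kb bin that holds each gene's start site, Input in grey and H3K27me3-RADIP in red. Prdm14 has 59 and 73 pairs, Pou5f1 and Esrrb have 10 and 16 in H3K27me3-RADIP and none listed in Input, Tfcp2l1 goes from 62 to 27, and Sall4 and Nr5a2 have none in either table.

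Esrrb RNA also had bins over Ttll5 and Ttll5 RNA had bins over Esrrb. Over the whole Esrrb gene the RNAs of other genes gave 30 DNA tags in Input, all of Ttll5, and 54 in H3K27me3-RADIP, of which Ttll5 gave 33. Over Tfcp2l1 the RNAs of other genes gave 124 and 67 DNA tags.

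The pcRNAs whose pair counts and median distances in both tables were nearest to those of Esrrb, by Euclidean distance on log2 values over 6916 pcRNAs, were Ntn1, Vac14 and Camta1, at distances of 0.290, 0.425 and 0.442. Ntn1 had 2226 and 2787 pairs with medians of 153 and 176 kb.

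A wider list of 28 genes of the naive network held 15 that were listed in Input and 16 in H3K27me3-RADIP, beside 42.3% and 43.7% of all protein-coding genes. Of the 8 with at least 50 pairs, 1 was past the fold limit upwards and 3 downwards, beside 14.4% and 23.8% of pcRNAs. The first was the DNA methylation cofactor Dnmt3l, with 31 and 55 pairs (0.71, 0.05 to 1.39), and the others were Rif1 with 959 and 677 pairs (−0.62, −0.76 to −0.48), Klf5 with 149 and 108 (−0.58, −0.95 to −0.21) and Zfp42 with 130 and 98 (−0.52, −0.92 to −0.14). The median log2 ratio of these 8 was −0.07, and so was that over all pcRNAs with at least 50 pairs. Its genes with the most pairs were Tcf7l1, with 1595 and 1935, Rif1, and Etv5, with 890 and 1098. Nanog had no row in either table.

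Of 8 genes of LIF and STAT3 signalling, 7 were listed in Input and 5 in H3K27me3-RADIP, and 0 of the 5 with at least 50 pairs were past the limit, which 14.4% of pcRNAs passed upwards and 23.8% downwards. Lifr led with 292 and 344 pairs, before Jak1 with 205 and 190 and Stat3 with 137 and 131. Of 9 genes of the formative and primed states, 4 were listed in Input and 5 in H3K27me3-RADIP. Both lists stand beside 42.3% and 43.7% of all protein-coding genes listed. Of the 3 formative and primed genes with enough pairs, 1 was past the limit, beside the same shares of pcRNAs: Lef1, a Wnt effector, with 18 and 52 pairs (1.41, 0.62 to 2.27). The median log2 ratios of the 5 and the 3 genes with at least 50 pairs were −0.18 and 0.14.

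Marker genes of other cell types were listed in part. The endoderm list had 2 of 6 genes listed, with 38 and 56 pairs in all, of Gata4 and Gata6, the neural list 1 and 2 of 5, with 11 and 33 pairs, and the mesoderm and trophoblast lists 0 of 5 and 0 of 4. The fibroblast list had 272 and 216 pairs, of which Fn1, a matrix gene, gave 272 and 209, more than Klf2 or Tbx3, and Col1a2, Thy1 and Vim had no row. The part of such cells in the results above was not tested.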

How the data were processed

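RNA–DNA pairs were measured in 16 libraries of PGK12.1 mouse ESCs, 8 labelled Input and 8 labelled H3K27me3-RADIP, which the study's methods describe as 4 biological replicates per condition merged before the interactions were called. The submitters' processing notes name CASAVA 1.8.2, STAR 2.5.0a, BWA 0.7.15-r1140 and build mm10. The authors gave every combination of RNA and 25-kb bin a p-value and a q-value from a modified negative binomial model, and the deposited tables list the pairs with a q-value of at most 0.1. Tags carry no molecular identifiers.

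Pairs were counted by RNA name, without a further filter, with pandas 2.3.3 under Python 3.11.15. The intervals came from scipy 1.17.1 with numpy 2.4.6, and the plots from matplotlib 3.10.9. Each tag was placed by its centre. Starts counted from 0 gave 0 combinations of RNA and bin with more than 1 q-value, and a shift by 1 base gave at least 29. Gene positions came from GENCODE M21, an older release than the authors used, which held 10172 of 10180 Input and 10656 of 10666 H3K27me3-RADIP gene identifiers. Genes without a row in a table were left out of its distances and shares. Log2 ratios are relative to all listed pairs and have exact conditional intervals. Ratios of a whole gene under an alternative that leaves pairs out (stricter q-value, repeated positions, shared bins alone) are relative to the pairs kept and have no interval. Shares have Wilson, differences of shares Newcombe, scaled pair counts Poisson and medians order-statistic intervals, all at 95%. Without replicates no p-value was computed, and a log2 ratio of 0.5 served as the fold limit, read beside the share of pcRNAs past it. The interval code was tested on simulated data. The genes named beside each member were those in its farthest bins outside the gene, the RNAs with the most pairs in its start-site bin, genes of preset lists and the pcRNAs nearest to Esrrb. Neighbours within Esrrb, Nr5a2 and Tfcp2l1 bins that lie nearer, and the internal Esrrb start, were picked with their values in view. The members and lists were chosen with earlier results of these data known. Alternatives were a q-value of at most 0.01, repeated tag positions counted once, other scalings, shared bins alone, other fold and count limits, gene identifiers, and other definitions of distance, outside and start site.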

Additional observations from a re-analysis of the deposited data

How the results depend on the processing

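No paired analysis was possible because the library numbers shared by the labels of both conditions are not carried by the merged tables. With a q-value of at most 0.01, 2 genes were past the fold limit in place of 1, since Klf2 joined Sall4 with a log2 ratio of 0.65, and Sox2 lost its row, which left 7 genes in H3K27me3-RADIP. With distances measured from the edge of the gene, 3 of 7 genes had a longer median in place of 6. With bins listed in both tables alone, and scaled to the pairs in such bins, the log2 ratio was 0.34 for Sall4, 0.59 for Klf2, 0.04 for Tbx3 and 0.12 for Esrrb. On that scale Klf2 and not Sall4 was past the fold limit. Relative to all listed pairs, none of these genes was past it over those bins. The medians over those bins were 115 and 142 kb for Esrrb, 111 and 124 kb for Nr5a2, 27.4 and 35.3 kb for Tfcp2l1 and 1.34 and 3.13 kb for Sall4. With repeated tag positions counted once, Klf2 was at 0.19, Tbx3 at 0.17 and Sall4 at 1.07. No called value changed sign. The counts of listed genes, of reached start sites, of genes with a larger outside share and of pcRNAs past the fold limit stayed within 1.5 times under every alternative run on them. Of 388 other values, 314 stayed within the counting interval of their main value (a bin count within 1.5 times) and 74 did not. Of the latter, 14 came from measuring from the gene edge, 12 from the 5-kb start window and 11 from the widened gene, which are different quantities, and 19 from the stricter q-value. The depth limits Klf4, Sox2 and Sall4 most, with 8 to 52 pairs in H3K27me3-RADIP, and the threshold on each bin means that a bin listed in a single table may hold unlisted pairs in the other.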
